A study of Mus musculus with 16 samples.

Results

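Cytokine receptor transcripts were followed across spleen cells grouped by their surface antigens. The 10 genes were chosen by name, namely Il7r, Il2rb, Il2rg, Il5ra, Il9r, Il4ra, Il6ra, Il10ra, Il21r and Ifngr1. All 10 were among the 11713 genes of the deposited count table. The choice was made with earlier results of these data known. Counts of these genes set beside the share of all genes are therefore descriptions. The cells came from spleens of 9-month-old female BALB/cJ mice, with no treatment or engineered allele named in the labels. They were profiled by CITE-seq, in which a droplet captures polyadenylated RNA together with DNA-tagged antibodies bound to the same cell. The labels list 16 samples in 4 groups of 4, RNA and antibody tags for each of the sources Main1 and Main2. Within a group the titles differ in a number code and in the ending, l1 or l2, and the sums pool over both. The tables separate the 2 sources but not the 4 samples of a group, so each source is 1 library here. The series text speaks of 2 spleens, but the labels do not say whether each source is 1 animal, so p-values may measure only technical spread between these libraries.

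Many cytokine receptors pair a ligand-binding chain with a chain shared with other receptors. Il2rg encodes the common gamma chain, which pairs with the products of Il7r, Il4ra, Il9r, Il21r and, together with Il2rb, with the receptors for interleukin-2 and interleukin-15. Il5ra and Il6ra encode the ligand-specific chains of receptors whose signalling chains are encoded by Csf2rb and Il6st, while Il10ra and Ifngr1 encode ligand-binding chains of the interleukin-10 and interferon gamma receptors. All of them signal through Janus kinases (JAKs) and STAT transcription factors. In the spleen, interleukin-7 is known for the survival of resting T cells, interleukin-15 for that of natural killer (NK) cells, and interleukin-5 for the growth of B-1 cells.

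The libraries held 7097 droplets, 3179 in Main1 and 3918 in Main2, with 7964712 and 10174799 unique molecular identifiers (UMIs, counted RNA molecules) and 14 barcodes in common. Antibody tags placed 5373 droplets in a B gate, 588 in a T gate, 115 in an NK gate and 110 in a monocyte gate. Smaller gates held dendritic cells (DC, 112), red pulp macrophages (77), neutrophils (70), erythroid cells (46) and plasmacytoid DC (35), and 571 droplets stayed ungated. Among these 9 gates, the summed RNA of each class's marker genes was highest in its own gate in both libraries. Some gates were mixed. The red pulp macrophage gate also held erythroid genes (25492 and 54528 CPM in Main1 and Main2, where CPM is a gene's UMIs scaled to 1e6 UMIs of the gate). Its own list summed to 13373 and 8265 CPM, beside 10256 and 8438 CPM of monocyte genes and 3842 and 9397 CPM of DC genes. In Main2 both of these lists were thus above its own. The T gate had 189 droplets positive for both CD4 and CD8a, with a median of 4372 UMIs against 1983 in droplets positive for CD4 only. Those 189 droplets carried 49.1% of the T gate's UMIs, and comparisons with the T gate were therefore repeated without them. No step to find droplets with several cells was applied. RNA free in the suspension also gives UMIs, and in the erythroid gate, which served as background, no receptor gene exceeded 5.25 CPM over both libraries. That gate held 266030 and 108986 CPM of its own genes. T cell genes summed to 29.8 and 64.9 CPM there, against 130 and 117 CPM in the B gate. The 5.25 CPM is therefore no upper bound for free RNA in other gates.

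Promoters of 4 genes are printed because the comparisons turn on them: Il7r, which had the largest log2 fold of the 10 genes between T and B cells, Il9r, which was higher in the marginal zone gate, and Il4ra and Il21r, which were both lower there. Il4ra (chromosome 7, 125552120 to 125579474, plus strand, GRCm38) and Il21r (125603429 to 125633570, plus strand) are protein-coding neighbours with 23954 bases between them. Il7r lies on chromosome 15 (9505788 to 9530176, minus strand) and Il9r on chromosome 11 (32187541 to 32200279, minus strand). The windows run 5′ to 3′ on the gene's strand, from 250 bases before to 50 after the start site given by RefSeq on GRCm38.p6, which can differ from the annotated gene end. RefSeq windows were matched for 8 of the 10 genes, all but Il2rb and Il10ra.
Il7r, chr15:9529827-9530126, minus strand: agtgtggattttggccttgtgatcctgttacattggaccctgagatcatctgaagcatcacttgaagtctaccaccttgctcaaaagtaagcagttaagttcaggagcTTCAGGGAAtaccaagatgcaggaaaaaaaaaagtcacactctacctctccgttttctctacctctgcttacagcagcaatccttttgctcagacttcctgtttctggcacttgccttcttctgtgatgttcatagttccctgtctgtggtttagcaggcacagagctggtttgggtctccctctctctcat
Il9r, chr11:32200230-32200529, minus strand: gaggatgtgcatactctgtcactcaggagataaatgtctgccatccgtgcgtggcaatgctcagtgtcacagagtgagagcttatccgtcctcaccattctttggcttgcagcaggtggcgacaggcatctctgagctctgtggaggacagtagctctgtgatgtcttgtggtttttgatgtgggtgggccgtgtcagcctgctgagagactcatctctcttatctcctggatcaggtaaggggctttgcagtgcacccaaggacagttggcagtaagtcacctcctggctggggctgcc
Il4ra, chr7:125552021-125552320, plus strand: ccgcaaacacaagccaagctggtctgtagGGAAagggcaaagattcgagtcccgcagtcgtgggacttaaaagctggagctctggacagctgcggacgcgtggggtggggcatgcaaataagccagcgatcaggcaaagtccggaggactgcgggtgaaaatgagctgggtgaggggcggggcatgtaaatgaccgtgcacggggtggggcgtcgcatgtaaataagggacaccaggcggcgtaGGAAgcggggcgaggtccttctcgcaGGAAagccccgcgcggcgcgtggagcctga
Il21r, chr7:125603179-125603478, plus strand: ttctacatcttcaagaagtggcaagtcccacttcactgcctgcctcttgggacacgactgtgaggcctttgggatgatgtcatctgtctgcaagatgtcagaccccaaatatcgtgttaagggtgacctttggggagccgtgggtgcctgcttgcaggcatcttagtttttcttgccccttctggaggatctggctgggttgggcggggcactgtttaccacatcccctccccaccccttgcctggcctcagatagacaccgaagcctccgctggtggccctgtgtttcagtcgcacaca
Capitals in the Il7r window mark TTCNNNGAA, the spacing that STAT factors are known to bind, which reads the same on both strands. It starts 142 bases before the start site, and 1 match of TTCC or GGAA overlaps it. TTCNNNGAA is held by 8.3% of the 32851 RefSeq promoters, and the Il7r window was the one that held it among the 8 matched receptor genes. Capitals in the Il4ra window mark GGAA, the core of ETS factor sites, searched on both strands (GGAA or TTCC). It had 3 matches, 221 and 6 bases before and 20 bases after the start. The windows of Il21r, Il9r and Ifngr1 had 0 matches, while 96.0% of all promoters hold at least 1.

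**Figure D1:**
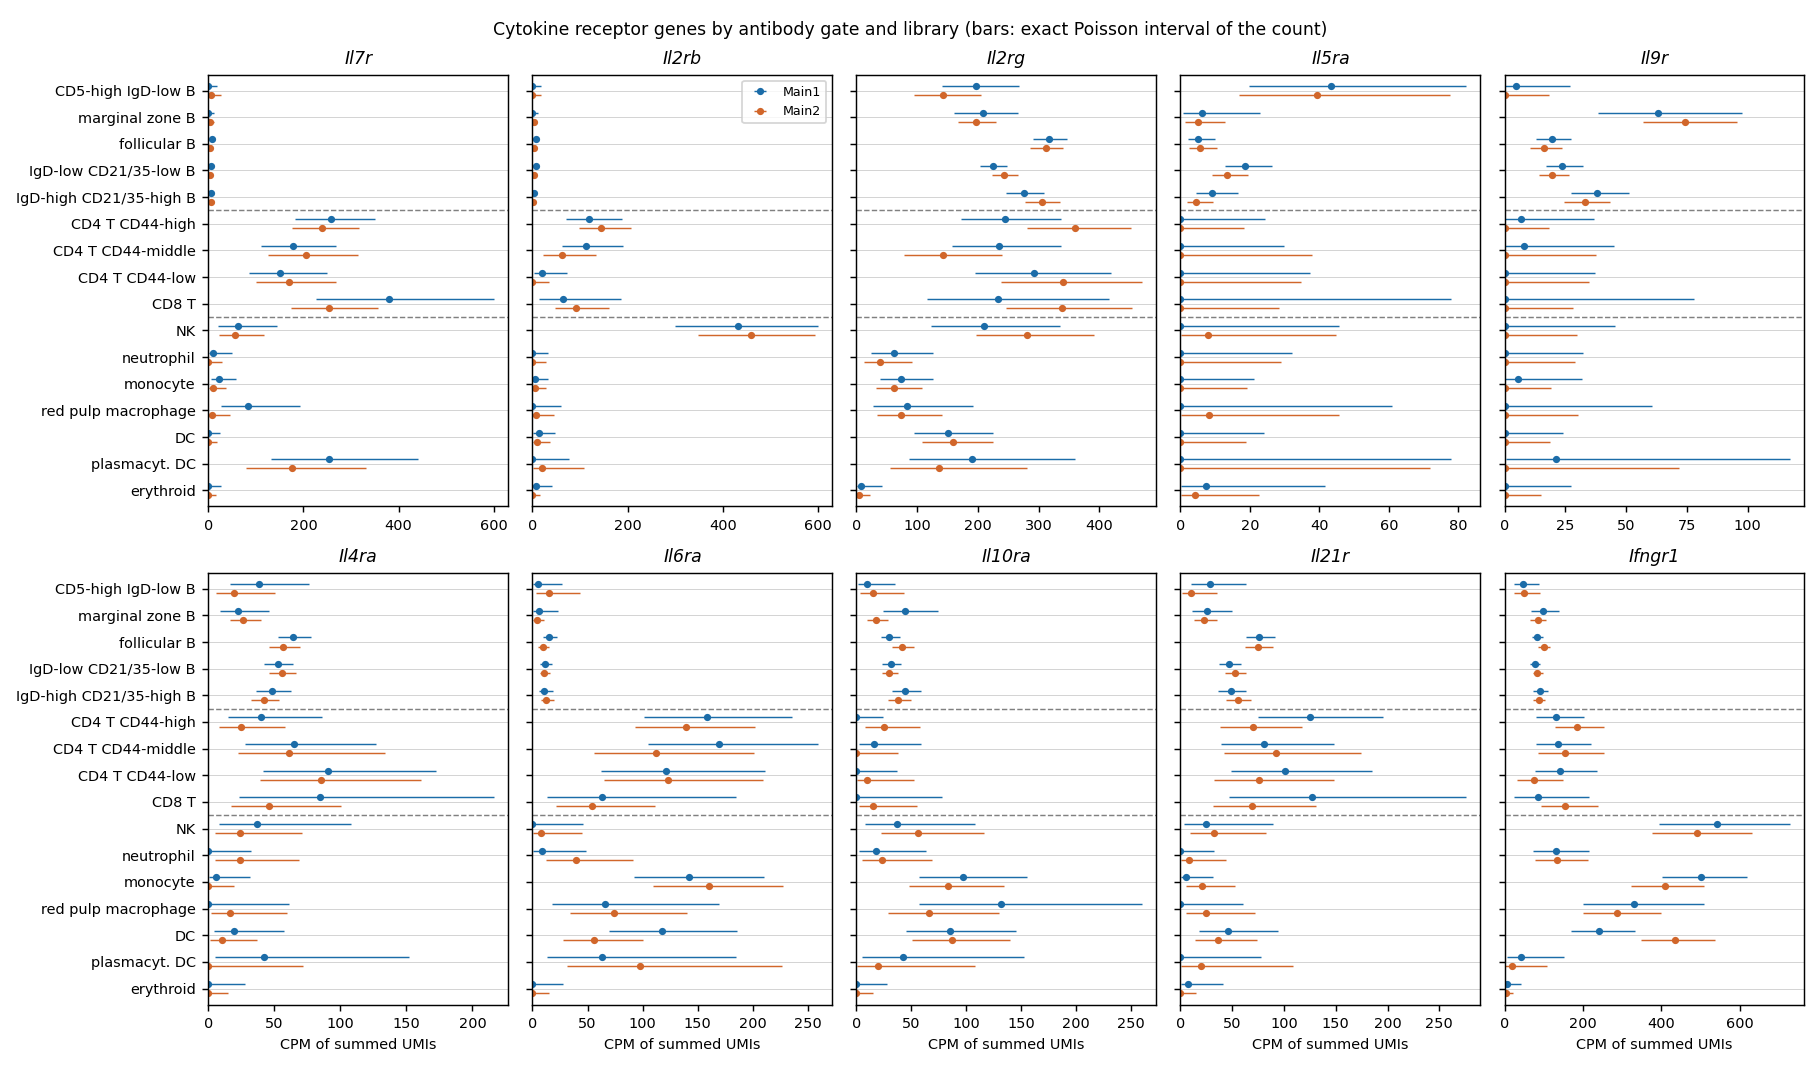
CPM of summed UMIs for each of the 10 genes (panels) in 16 non-overlapping antibody gates, for Main1 (blue) and Main2 (orange), with exact Poisson 95% intervals that cover counting error only; each panel has its own linear axis, and levels are not compared between genes. Il2rb peaks in the NK gate (432 and 459 CPM), Il9r in the marginal zone gate (63.2 and 74.4) and Il5ra in the CD5-high IgD-low gate (43.3 and 39.3).

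Between T and B cells, most receptor genes differed. Il7r, Il2rb, Il6ra, Ifngr1 and Il21r were higher in the T gate, Il9r, Il5ra and Il10ra were higher in the B gate, and the shared chain Il2rg and Il4ra did not pass the test. Counts were summed per library and gate and compared by edgeR's quasi-likelihood test with the library as a block, at a Benjamini-Hochberg adjusted p under 0.05. Of the 10 genes 5 were higher and 3 lower, against 24.5% of 9538 genes tested that passed in either direction, 12.6% higher and 12.0% lower. Among the lower genes, Il9r had 3 UMIs in the T gate and Il5ra 1. Both met the count minimum for testing through the B gate, and their place in the count rests on the level there. DESeq2 called 5 genes, Il9r not among them, and gave Il5ra no adjusted p. Over all 9 comparisons 71 tests of receptor genes were made and 34 passed, while the share of all genes that passed ran from 2.93% to 38.2% by comparison. In each of the 34 both libraries of the higher side lay above both libraries of the lower side. The calls rest on these same libraries, so that separation adds no support of its own.

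Il7r encodes the ligand-binding chain of the interleukin-7 receptor. It stood at 283 CPM in Main1 and 313 CPM in Main2 in the T gate, and at 5.60 and 3.81 CPM in the B gate. That was 59.1-fold higher in T cells (log2 fold 5.89, standard error (SE) 0.19, adjusted p = 5.16e-212). A UMI of Il7r was found in 45.2% of T droplets (Wilson 95% interval 41.3 to 49.3) and in 0.912% of B droplets, at medians of 2447.5 and 1666 UMIs per droplet. With each droplet thinned to 1100 UMIs the shares were 23.4% and 0.453%. The T gate was thus above the B gate at equal depth as well. In T droplets positive for both CD4 and CD8a the level was 375 CPM, and without them the log2 fold was 5.53.

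Il2rb, the beta chain shared by the interleukin-2 and interleukin-15 receptors, reached 89.3 and 90.4 CPM in the T gate against 5.997 and 2.70 CPM in the B gate, 19.6-fold higher (log2 fold 4.29, SE 0.25, adjusted p = 6.5e-66). The ratio of CPM was 14.9 in Main1 and 33.5 in Main2. Il6ra, the ligand-binding chain for interleukin-6, had 152 and 109 CPM in T cells against 11.8 and 9.84 CPM in B cells (log2 fold 3.47, SE 0.19, adjusted p = 8.2e-70). For both genes each T gate library was above each B gate library. Ifngr1 was 1.69-fold higher in T cells, at 132 and 173 CPM against 82.4 and 87.7 CPM (adjusted p = 4.4e-07). Il21r, the interleukin-21 receptor, was 1.40-fold higher at 88.1 and 74.2 CPM against 54.6 and 53.6 CPM (adjusted p = 0.0267). Il21r had the highest adjusted p of the 8 calls and passed in 5 of 8 alternative settings, with adjusted p from 0.0130 to 0.426.

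Il9r, the ligand-specific chain of the interleukin-9 receptor, had 3 UMIs in all T droplets and 314 in B droplets. Its level was 2.32 and 0.904 CPM in the T gate against 27.2 and 28.2 CPM in the B gate, a ratio of CPM 18.2-fold lower in T cells (95% counting interval 6.18 to 88.8, edgeR adjusted p = 2.45e-12). Il5ra, the ligand-specific chain of the interleukin-5 receptor, had 1 UMI in T droplets and 119 in B droplets, a ratio 20.7-fold lower (3.65 to 825, edgeR adjusted p = 3.89e-05). The T gate counts of both were at or under the floor of 3 UMIs. Under DESeq2 the Il9r call was lost (adjusted p = 0.707, range over 8 alternatives 1.23e-13 to 0.707) and Il5ra had no adjusted p. Il10ra, the ligand-binding chain for interleukin-10, fell from 33.6 and 32.7 CPM in the B gate to 9.27 and 18.1 CPM in the T gate (log2 fold -1.30, SE 0.30, adjusted p = 0.000106), and was 3.62-fold lower in Main1 and 1.81-fold lower in Main2. The log2 fold was 0.13 (SE 0.12) for Il2rg and 0.10 (SE 0.20) for Il4ra.

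Beside these values, the T gate of Main2 carried more RNA of neutrophil genes (1847 CPM summed over 5 of 5 genes) and plasma cell genes (1944 CPM, 4 of 4) than that of Main1 (245 and 153 CPM). It also held more monocyte RNA (1216 against 473 CPM) and less erythroid RNA (148 against 2983 CPM). Their part in the differences was not tested. Without the droplets positive for both CD4 and CD8a, an alternative added after the data were seen, the count of receptor genes passing was 8 again. Over all genes 1626 of 9370 passed in that setting, in place of 2341 of 9538.

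Within CD4 T cells, Il2rb was higher in droplets with more of the antigen CD44. CD44 is an adhesion receptor that is high on antigen-experienced T cells, and CD4 T droplets (CD4 positive, CD8a negative) were divided into tertiles by its tag count. Il2rb stood at 119 and 145 CPM in the CD44-high tertile, at 113 and 61.3 CPM in the middle one and at 20.2 and 0 CPM in the CD44-low tertile. The CD44-high tertile had 47 UMIs and the CD44-low tertile 2, a ratio of CPM of 13.7 (95% counting interval 3.59 to 116). The edgeR log2 fold was 3.59 (SE 0.71, adjusted p = 0.00096). In Main1 alone the ratio was 5.88, and in Main2, where the CD44-low tertile had 0 UMIs, Il2rb was at least 5.12-fold higher by the floor of 3 UMIs per library. Thinned to 1100 UMIs, 15.3% of CD44-high and 0.679% of CD44-low droplets kept a UMI, from 29.6% and 0.917% unthinned at medians of 2535 and 1833 UMIs.

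It was 1 of 7 receptor genes tested in that comparison, against 5.27% of 2410 genes that passed in either direction, 2.99% higher and 2.28% lower. Its call held in 6 of the 6 alternatives that gave an adjusted p (1.41e-05 to 0.0105), while DESeq2 gave none. Il4ra, the chain for interleukin-4 and interleukin-13, ran the other way in value, with 39.5 and 24.96 CPM in CD44-high against 90.7 and 84.9 CPM in CD44-low droplets, but did not pass (log2 fold -1.50, SE 0.54, adjusted p = 0.123). Il7r at 247 against 161 CPM, Il2rg at 310 against 317 CPM and Il6ra at 148 against 122 CPM were also not called. The 5 NK marker genes summed to 19.8 and 34.9 CPM in CD44-high and 30.2 and 28.3 CPM in CD44-low droplets. Klre1 and Prf1 were at 0 in both, while Ncr1 and Klrb1c had UMIs in CD44-high and none in CD44-low droplets. In the middle tertile the 5 NK marker genes summed to 654 CPM in Main1 and 71.6 CPM in Main2. CD44-high droplets of Main2 held 9689 CPM of plasma cell genes against 171 in Main1, and CD44-low droplets of Main1 held 15296 CPM of erythroid genes against 217 in Main2. The part of those transcripts in the Il2rb difference was not tested.

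Between CD8 T and CD4 T droplets no receptor gene passed, of 7 tested, against 2.98% of 2414 genes (2.07% higher, 0.911% lower). CD8 T droplets were CD8a positive and CD4 negative, so the 189 T gate droplets positive for both were on neither side. At an unadjusted p under 0.05 edgeR gave 2, Il7r and Il6ra, and DESeq2 called 0 of the 2 genes, Il7r and Il2rg, that it gave an adjusted p. Il7r had 380 and 254 CPM in CD8 T droplets and 208 CPM over all CD4 T droplets (log2 fold 0.67, SE 0.27, adjusted p = 0.246). Il6ra had 63.4 and 53.8 CPM in CD8 T droplets and between 112 and 170 CPM in the CD44-based tertiles of CD4 T droplets of either library (log2 fold -1.14, SE 0.44, adjusted p = 0.208). The 2 classes did not overlap in Il6ra, yet the CD8 gate had 10 UMIs from 57 droplets. With antibody tags centred within each droplet the Il6ra difference passed (log2 fold -1.34, adjusted p = 0.0273). CD8 T droplets of Main2 held more RNA of monocyte (2282 CPM), DC (1645 CPM) and NK genes (999 CPM) than those of Main1 (232, 84.5 and 63.4 CPM). The other lists differed less, with neutrophil genes lower in Main2 at 231 against 317 CPM. The part of those transcripts in the CD8 T values was not tested.

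In NK cells Il2rb and Ifngr1 were higher than in the T gate, and Il7r, Il6ra and Il21r were lower. Of 8 receptor genes tested 2 were higher and 3 lower, against 8.49% of 7433 genes (2.57% higher, 5.92% lower). Among the lower genes, Il6ra had 1 UMI in the NK gate and met the count minimum for testing through the T gate. The median log2 fold of all genes was -0.29 in this comparison and -0.09 with DESeq2's size factors, and the share of calls that were higher moved from 30.3% to 45.2%. Folds are therefore also given relative to that median.

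Il2rb had 432 and 459 CPM in the NK gate, 3.92-fold above the T gate (log2 fold 1.97, SE 0.24, adjusted p = 5.65e-14, or 2.26 relative to the median gene). It was also above the next gate in order, CD44-high CD4 T, in both libraries. A UMI of Il2rb was present in 49.6% of NK droplets (40.6 to 58.6) at a median of 1526 UMIs, in 2.17% of erythroid droplets at a median of 3474 and in 0.763% of B droplets. Thinned to 1100 UMIs the NK share was 36.6% and the T share 9.21%. Ifngr1 stood at 543 and 491 CPM in NK cells against 132 and 173 CPM in T cells (log2 fold 1.38, SE 0.20, adjusted p = 6.46e-10, or 1.67 relative to the median gene).

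Il7r was 61.7 and 56.3 CPM in the NK gate, 6.46-fold below the T gate (log2 fold -2.69, adjusted p = 1.13e-12, or -2.40 relative to the median gene), yet above the DC and erythroid gates, where it had 0 UMIs. Of its 12 UMIs there, 6 came from 1 droplet, so this level rests on few cells. Il6ra had 1 UMI in NK droplets against 251 in T droplets, a ratio 26.2-fold lower (4.66 to 1039, edgeR adjusted p = 4.56e-09, with a fitted log2 fold of -4.71 relative to the median gene). Il21r had 24.7 and 32.2 CPM in NK droplets (log2 fold -1.80, SE 0.55, adjusted p = 0.0155, or -1.51 relative to the median gene), and 4 of 8 alternatives called it (adjusted p 0.0107 to 0.222). Il2rg had 210 and 282 CPM in the NK gate and fell just short of the threshold (log2 fold -0.64, SE 0.22, adjusted p = 0.0511). T cell genes summed to 1024 and 1150 CPM in the NK gate against 5135 and 5281 CPM in the T gate, and erythroid genes to 13700 and 394 CPM in the NK gates of Main1 and Main2. Their part in the NK values was not tested.

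**Figure D2:**
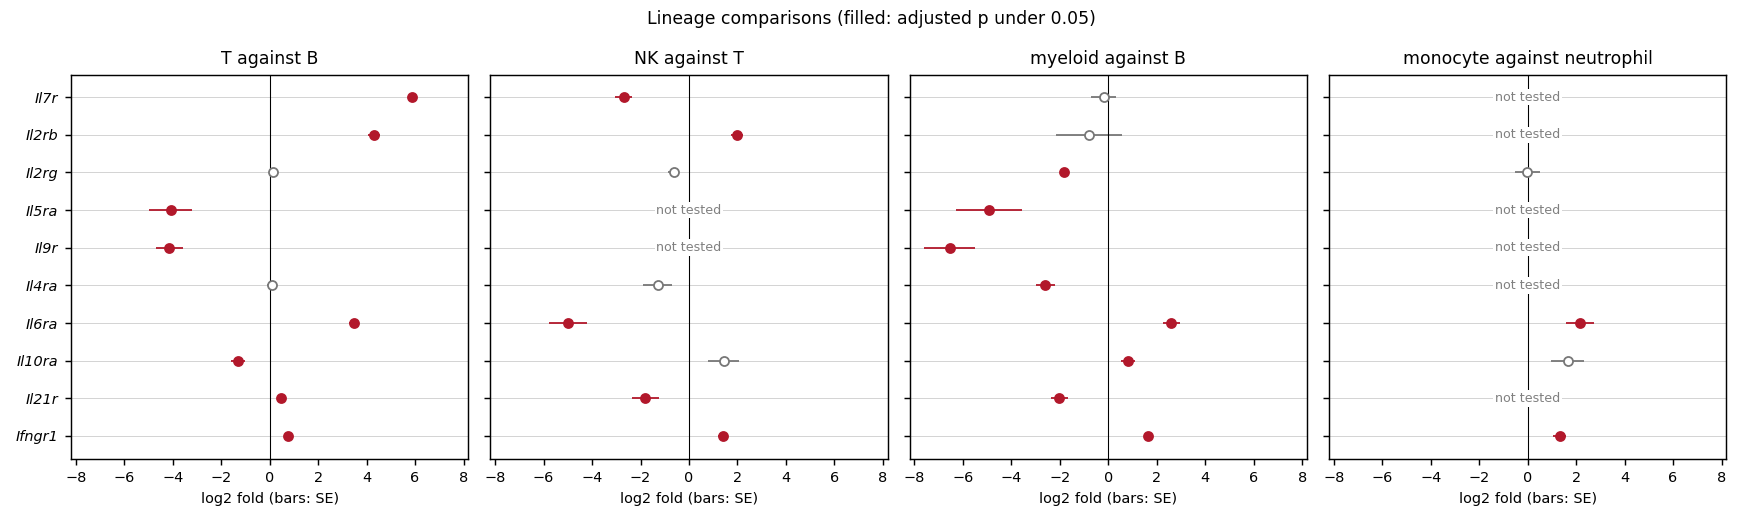
Log2 folds (points) with SE (bars) of the receptor genes in 4 lineage comparisons, each from 2 libraries per gate; filled red points passed at an adjusted p under 0.05, open grey points did not, and genes under the count minimum are marked as not tested. Il2rb is far right of 0 for T against B (4.29) and again for NK against T (1.97), while Il7r and Il6ra switch from right to left (Il7r 5.89 and -2.69).

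Against B cells, the myeloid gates (neutrophil, monocyte, red pulp macrophage and DC, averaged with equal weight) were higher in Il6ra, Ifngr1 and Il10ra and lower in Il2rg, Il4ra, Il21r, Il9r and Il5ra. That is 3 of 10 genes higher and 5 lower, against 38.2% of 9576 genes (9.69% higher, 28.5% lower). Among the lower genes, Il9r and Il5ra had 1 UMI each over the myeloid gates. Both met the count minimum for testing through the B gate, and their place in the count rests on the level there. The median log2 fold of all genes was -0.62, and -0.36 with DESeq2's size factors, and the share of calls that were higher went from 25.4% to 43.0% (55.9% under DESeq2). The direction of each of the 8 called genes was the same under both scalings.

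Ifngr1 had 318 and 339 CPM over the myeloid gates against 82.4 and 87.7 CPM in B cells (log2 fold 1.64, SE 0.14, adjusted p = 4.43e-29, or 2.26 relative to the median gene). Its order among gates was NK at 511 CPM, monocyte 453, DC 350 and red pulp macrophage 301, and these neighbours did not differ beyond the libraries and counting intervals. All 4 were above CD44-high CD4 T at 162 CPM in both libraries. In plasmacytoid DC, by contrast, Ifngr1 had 3 UMIs (30.3 CPM, interval 6.26 to 88.7).

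Il6ra stood at 95.3 and 87.8 CPM in myeloid cells against 11.8 and 9.84 CPM in B cells (log2 fold 2.59, SE 0.35, adjusted p = 4.91e-12, or 3.21 relative to the median gene). Within the myeloid gates it was highest in monocytes at 143 and 161 CPM, with 117 and 56.3 CPM in DC, 66.0 and 73.8 CPM in macrophages and 8.74 and 39.2 CPM in neutrophils. Monocytes and the 3 CD4 T tertiles (148, 144 and 122 CPM) could not be set apart in its order. Il10ra had 79.4 and 69.0 CPM in myeloid cells against 33.6 and 32.7 CPM in B cells (log2 fold 0.81, SE 0.29, adjusted p = 0.0172, or 1.42 relative to the median gene). Its call held in 5 of 7 alternatives (adjusted p 0.00164 to 0.102). Monocytes, macrophages and DC had 89.5, 87.6 and 86.0 CPM of Il10ra, which could not be set apart, and neutrophils 20.7 CPM.

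Of the 6 genes whose chains form receptors with the common gamma chain, itself included, 4 were lower in myeloid cells (Il2rg, Il4ra, Il21r and Il9r). Il2rg was 95.3 and 89.3 CPM against 264 and 267 CPM in B cells (log2 fold -1.81, SE 0.16, adjusted p = 5.62e-28, or -1.20 relative to the median gene). Il4ra was 7.94 and 11.0 CPM against 52.8 and 47.8 CPM (log2 fold -2.60, SE 0.40, adjusted p = 1.01e-09, or -1.98 relative to the median gene), and Il21r was 15.9 and 23.5 CPM against 54.6 and 53.6 CPM (log2 fold -2.02, SE 0.36, adjusted p = 2.73e-07, or -1.41 relative to the median gene). DC kept the highest Il2rg among the myeloid gates, at 150 and 159 CPM. Il9r and Il5ra had 1 UMI each over 369 myeloid droplets, 31.7-fold (5.65 to 1257) and 12.0-fold (2.12 to 479) below B cells by the ratio of CPM, with fitted log2 folds of -5.94 and -4.31 relative to the median gene. Il7r and Il2rb did not pass, and for them the fitted mean over gates (log2 fold -0.19, SE 0.51, and -0.81, SE 1.35) and the pooled levels (11.4 against 4.60 CPM, and 6.13 against 4.16 CPM) had opposite signs.

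Monocytes and neutrophils differed in Il6ra and Ifngr1, both higher in monocytes, which makes 2 of 4 receptor genes tested, against 27.6% of 3267 genes (16.3% higher, 11.3% lower). The median gene was at 0.22 on the log2 scale here and at 0.02 with DESeq2's size factors, with 59.0% and 47.4% of calls higher. Il6ra had 56 UMIs in monocytes and 6 in neutrophils, a ratio of 6.13 (2.65 to 17.4), which was 16.3 in Main1 and 4.09 in Main2 (edgeR log2 fold 2.15, SE 0.57, adjusted p = 0.00101, or 1.94 relative to the median gene). Ifngr1 was 502 and 409 CPM in monocytes against 131 and 133 CPM in neutrophils (log2 fold 1.32, SE 0.28, adjusted p = 2.32e-05, or 1.10 relative to the median gene). Il10ra was 96.9 and 82.8 CPM against 17.5 and 23.5 CPM without passing (log2 fold 1.65, SE 0.68, adjusted p = 0.0535, and 0.00937 to 0.238 over 7 alternatives). Neutrophil genes summed to 320060 and 360436 CPM in the neutrophil gate, and erythroid genes to 10091 CPM in monocytes of Main2 against 148 CPM in those of Main1. Plasma cell genes summed to 10637 and 4318 CPM in the monocyte gate and to 4272 and 267 CPM in the neutrophil gate. The monocyte list summed to 30930 and 37729 CPM in the monocyte gate and to 18731 and 18580 CPM in the neutrophil gate. Their part was not tested.

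Plasmacytoid DC held Il7r transcripts. The gene had 253 CPM in Main1 and 175 CPM in Main2, from 21 UMIs in 14 of 35 droplets (40.0%, interval 25.6 to 56.4), and in its order of levels this gate fell between CD4 T tertiles and could not be set apart from them. Conventional DC had 0 UMIs in 112 droplets, which allows a level of up to 8.60 CPM by the floor of 3 counts. Of the 5 T cell marker genes 3 had UMIs in the plasmacytoid DC gate (Cd3d, Cd3g and Trbc2), and Cd3e and Lck were at 0. The whole T list summed to 84.3 and 58.3 CPM there and to 130 and 117 CPM in the B gate. In the plasmacytoid DC gate NK genes summed to 316 and 77.7 CPM and monocyte genes to 4742 and 5209 CPM. Of the 5 monocyte genes measured 3 had UMIs there, with F13a1 and Csf1r at 0, and of the 5 NK genes Prf1 was at 0. The part of RNA from other cells in the Il7r level was not tested. The gate's own list (Siglech, Ccr9, Bst2, Tcf4 and Irf8) summed to 11592 and 12167 CPM. This comparison of gates was made after the values were seen and has no test.

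B cells were divided by antigens into 5 non-overlapping parts: CD5-high IgD-low, marginal zone (top 25% of CD21/35 with IgD below the median), follicular (IgD at or above the median, CD21/35 below the top 25%), and the 2 remaining combinations of IgD and CD21/35. CD21/35 are complement receptors that are high on marginal zone B cells, which respond early to blood-borne antigens, and IgD is high on follicular B cells. In the marginal zone gate Il9r was higher than in the follicular gate, and Il21r, Il4ra and Il2rg were lower. Of 8 receptor genes tested 1 was higher and 3 lower, against 9.2% of 8487 genes (5.07% higher, 4.14% lower).

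Il9r had 63.2 and 74.4 CPM in the marginal zone gate against 19.4 and 16.0 CPM in the follicular gate, 4.47-fold higher (log2 fold 2.16, SE 0.26, adjusted p = 4.29e-08). The libraries of the 2 gates lay far apart. A UMI was present in 13.9% of marginal zone droplets (11.1 to 17.4) and 2.93% of follicular droplets, at medians of 2141 and 1556 UMIs, and in 0 of 46 erythroid droplets. At 1100 UMIs per droplet the shares were 7.72% and 1.83%. Next in its order came IgD-high CD21/35-high B cells at 37.9 and 32.9 CPM, below the marginal zone and above the IgD-low CD21/35-low gate (23.8 and 19.5 CPM) in both libraries. The CD5-high gate had 1 UMI (2.43 CPM), which did not pass against the follicular gate (log2 fold -2.71, SE 0.99, edgeR adjusted p = 0.106).

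Il21r moved the opposite way, with 25.3 and 22.3 CPM in marginal zone and 76.2 and 74.7 CPM in follicular droplets (log2 fold -1.58, SE 0.26, adjusted p = 1.74e-05). Its genomic neighbour Il4ra, whose promoter is printed with that of Il21r, had 22.1 and 26.0 CPM against 64.3 and 56.8 CPM (log2 fold -1.13, SE 0.26, adjusted p = 0.0024). Il2rg fell less, from 317 and 312 CPM to 209 and 197 CPM (log2 fold -0.52, SE 0.12, adjusted p = 0.00223). Each of the 4 calls held in all 7 alternative settings. Ifngr1, at 98.0 and 84.3 CPM against 83.6 and 99.97 CPM, overlapped between the gates. Il10ra had 44.3 CPM in marginal zone droplets of Main1 and 17.4 CPM in those of Main2, on both sides of the follicular values of 30.0 and 41.3 CPM. The list of plasma cell genes summed to 1169 and 1186 CPM in the marginal zone gate and 699 and 1706 CPM in the follicular gate.

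A finer division by single antigens was added after the data were seen and is given with no test. The B gate outside the CD5-high part was cut into quartiles of each tag count, first of CD21/35. Il9r in Main1 went from 16.3 CPM in the lowest quartile through 22.6 and 27.9 to 42.3 CPM in the highest, and in Main2 from 8.16 through 21.5 and 23.4 to 47.9 CPM. It was thus higher in each next quartile of both libraries, with overlapping intervals in the middle. Il4ra did not follow CD21/35 step by step, with 56.7, 68.8, 51.7 and 40.9 CPM in Main1 and 47.3, 62.7, 59.5 and 35.7 CPM in Main2. Il21r likewise had its lowest value in the top quartile, at 43.7 and 43.5 CPM, and its highest in the second quartile of Main1 (72.8 CPM) and the third of Main2 (69.5 CPM).

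Along IgD, the other antigen of the marginal zone gate, Il21r was higher in each next quartile, with 32.9, 56.2, 63.6 and 67.5 CPM in Main1 and 36.0, 57.8, 59.1 and 68.4 CPM in Main2. Il4ra was lowest in the lowest IgD quartile, at 37.8 and 31.2 CPM, and between 43.9 and 69.5 CPM in the others. Il9r was nearly level along IgD in Main1, at 30.39, 30.25, 28.39 and 25.15 CPM. In Main2 it had 40.8 CPM in the lowest quartile and between 23.63 and 27.05 CPM in the others. The intervals of the lowest quartile overlapped the others in both libraries. Along CD44, Il21r went from 84.2 to 39.6 CPM in Main1 and from 86.8 to 41.7 CPM in Main2 between the lowest and highest quartile, and Il4ra from 82.9 to 39.6 CPM and from 66.5 to 29.7 CPM.

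**Figure D3:**
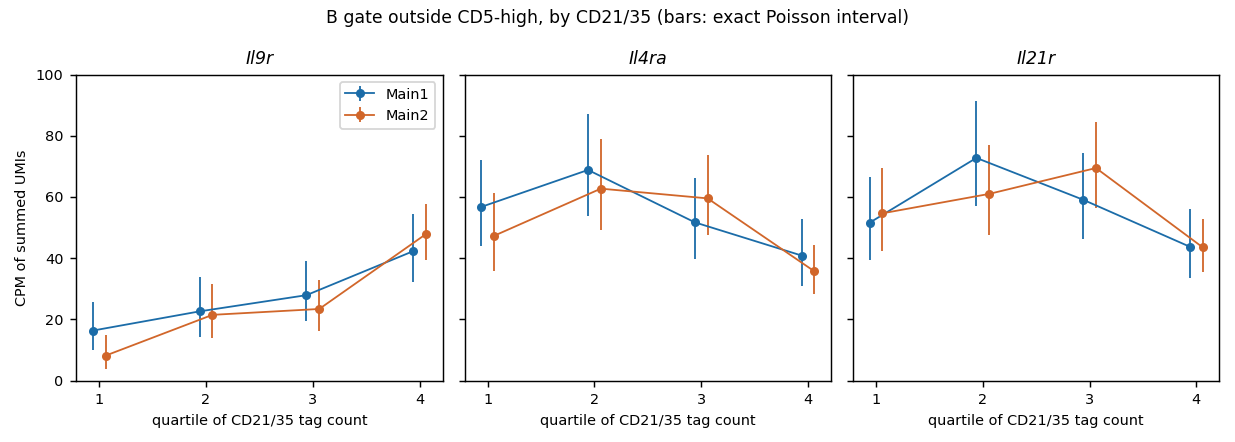
CPM of summed UMIs of Il9r, Il4ra and Il21r in the B gate outside the CD5-high part, by quartile of the CD21/35 tag count, for Main1 and Main2 with exact Poisson 95% intervals. Il9r climbs to 42.3 and 47.9 CPM in the top quartile, while Il4ra and Il21r are lowest there (Il4ra 40.9 and 35.7 CPM).

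The CD5-high IgD-low part of the B gate, 80 droplets of Main1 and 61 of Main2, had the highest level of Il5ra. CD5 with low IgD is a phenotype of B-1a cells, and the gate required droplets negative for CD90, TCR, CD4 and CD8a. Il5ra had 43.3 and 39.3 CPM there against 4.99 and 5.55 CPM in follicular droplets, 8.21-fold higher (log2 fold 3.04, SE 0.54, adjusted p = 9.97e-05). These are 17 UMIs on each side, from 15 of 141 CD5-high droplets (10.6%, interval 6.55 to 16.8) and 16 of 1811 follicular droplets (0.884%). At 1100 UMIs the shares were 4.15% and 0.540%, and 4.35% of erythroid droplets (2 of 46) had a UMI before thinning and 0.751% after it. The CD5-high level was above the next gate in order, IgD-low CD21/35-low at 18.7 and 13.5 CPM, in both libraries.

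Il21r was lower in the CD5-high gate than in the follicular gate, with 28.9 and 9.82 CPM against 76.2 and 74.7 CPM (log2 fold -1.85, SE 0.41, adjusted p = 0.002), 2.64-fold lower in Main1 and 7.60-fold lower in Main2. Il2rg was lower too, at 197 and 142 CPM against 317 and 312 CPM (log2 fold -0.79, SE 0.16, adjusted p = 0.000996). With Il5ra this gave 1 of 8 receptor genes higher and 2 lower, against 6.7% of 8227 genes (4.05% higher, 2.65% lower). Each call held in all 7 alternative settings. Il4ra at 38.5 and 19.7 CPM, Il10ra at 9.62 and 14.7 CPM and Ifngr1 at 48.1 and 49.1 CPM were below both follicular libraries without passing. The gate held more RNA of plasma cell genes, at 1395 and 4627 CPM. In droplets with 3 or more of the 4 plasma cell genes Il5ra was at 78.9 CPM over both libraries (5 UMIs, 15 droplets), and at 35.4 CPM in such follicular droplets (3 UMIs, 34 droplets). In the other droplets it was at 39.4 and 29.3 CPM, against 5.09 and 3.83 CPM in the follicular gate.

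In IgD-low CD21/35-low B cells Il5ra was higher, and Il21r and Il2rg lower, than in follicular B cells, the same libraries that served the other B cell comparisons. Il5ra was 3.12-fold higher at 18.7 and 13.5 CPM (log2 fold 1.64, SE 0.37, adjusted p = 0.00506). Il21r at 46.9 and 52.5 CPM (log2 fold -0.53, SE 0.14, adjusted p = 0.0269) and Il2rg at 225 and 244 CPM (log2 fold -0.36, SE 0.09, adjusted p = 0.0207) were lower. That made 1 of 9 receptor genes higher and 2 lower, against 2.93% of 8694 genes (2.25% higher, 0.679% lower). Il5ra passed in 5 of 7 alternatives (adjusted p 0.00146 to 0.19), and Il2rg (0.00444 to 0.313) and Il21r (0.00278 to 0.9997) in 4 of 7 each. The gate held 8531 and 10397 CPM of plasma cell genes against 699 and 1706 CPM in the follicular gate, and Il5ra in its droplets with fewer than 3 such genes was at 19.7 and 13.3 CPM.

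**Figure D4:**
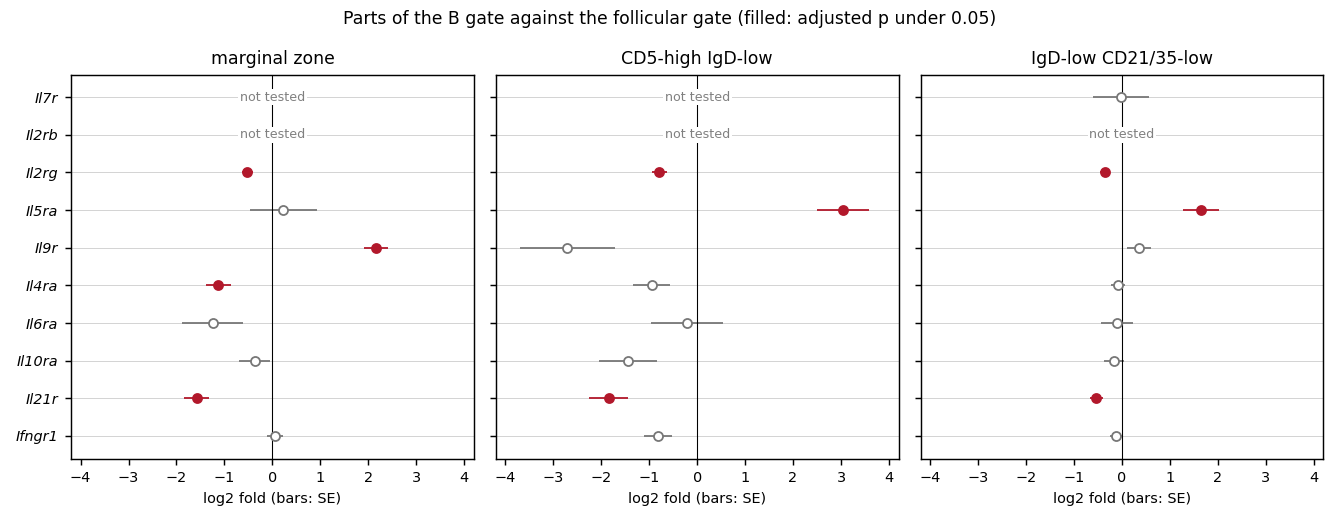
Log2 folds (points) with SE (bars) of the receptor genes in 3 parts of the B gate, each against the follicular gate, from 2 libraries; filled red points passed at an adjusted p under 0.05. Il9r is to the right in the marginal zone part (2.16) and Il5ra in the other parts (3.04 and 1.64), while Il21r and Il2rg are left of 0 in all 3.

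The levels of the shared chain Il2rg ran from 317 CPM in CD44-low CD4 T and 315 CPM in follicular B through 310 CPM in CD8 T to 253 CPM in NK cells and 155 CPM in DC, and no gate differed from its neighbour until the erythroid gate at 5.25 CPM. Il4ra was likewise graded, from 87.7 CPM in CD44-low CD4 T to 2.71 CPM in monocytes, with no step between neighbours. For Il21r the 4 T gates (84.5 to 93.7 CPM) and follicular B (75.4 CPM) could not be set apart, since T gates of Main2 lay as low as 69.2 CPM. Follicular B was above IgD-high CD21/35-high B at 52.5 CPM in both libraries. Il5ra and Il9r, at the other end, had 0 UMIs in 8 and 7 of the 16 gates.

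Genes with the most similar pattern over 14 gates, by Pearson r of log2(CPM + 10) across 7003 genes, were found for the 9 receptor genes with 200 or more UMIs, all but Il5ra. The 14 points share 2 libraries and their depth, and the values are descriptions. Il2rb ran closest to Il18r1 (r = 0.978), which encodes a chain of the interleukin-18 receptor, then Sh2d1a (0.968), an adaptor of lymphocyte signalling receptors, and Ctsw (0.947), a protease of cytotoxic lymphocytes. Il7r ran closest to Saraf (0.947), Cd28 (0.933), the T cell costimulatory receptor, and Cdipt (0.913). Il9r ran closest to Cr2 (0.918), which encodes the CD21/35 antigen by which the B gates were cut, then Edaradd (0.897). For the others the nearest were Ankrd44 for Il2rg (0.967), Hps3 for Il10ra (0.955), Rnf20 for Il21r (0.938), Cyth1 for Il4ra (0.936), Arl14ep for Ifngr1 (0.927) and Clip1 for Il6ra (0.918).

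The rest of the pathway was read from lists of 37 other cytokine receptors, 20 genes of JAK, STAT and SOCS proteins, and 16 ligands. In T against B cells 6 of 26 other receptors tested were higher and 5 lower, against 12.6% and 12.0% of all genes, with a median log2 fold of 0.30 against -0.01 over all genes. Il18r1 had 83.8 CPM in T cells and 1.95 CPM in B cells (log2 fold 5.22), and Il2ra, the inducible chain of the interleukin-2 receptor, 23.4 and 0.885 CPM (4.43). Tnfrsf13c, the BAFF receptor that B cells need to survive, fell from 411 CPM to 11.2 CPM (-5.27). Of the 20 signalling genes 9 were higher in T cells and 1 lower, against the same shares. Feedback inhibitors induced by cytokine signals led them, with Cish at 34.0 against 1.42 CPM, Socs2 at 42.7 against 2.74 CPM and Socs1 at 86.9 against 8.58 CPM. Of 6 ligands tested 2 were lower, Il18 and Tgfb1. DESeq2 called 9 of the 26 receptors, 8 of the signalling genes and 1 ligand.

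In NK cells 2 partner chains were lower than in T cells. Il6st, the signalling chain used by Il6ra, and Ifngr2, the second chain of the interferon gamma receptor, had 0 UMIs in the NK gate against 65.0 and 35.1 CPM in the T gate. By the floor of 3 UMIs over both libraries they were at least 4.45-fold and at least 2.40-fold lower. In NK cells Il18rap, the second chain of the interleukin-18 receptor, was higher (175 against 11.2 CPM). Over the lists 3 of 18 other receptors were higher and 4 lower, against 2.57% and 5.92% of all genes, and DESeq2 called 3 of them. Also, 1 of 18 signalling genes was higher (Jak1) and 2 lower, with Ptpn6 among them, while 0 of 5 ligands passed with edgeR (1 at an unadjusted p under 0.05), and 0 of the 4 with a DESeq2 adjusted p. In the myeloid gates 12 of 26 other receptors were higher and 6 lower, against 9.69% and 28.5% of all genes. Among the higher ones were the growth factor receptor Csf1r (193 against 4.95 CPM) and the TNF receptor Tnfrsf1a (105 against 1.95 CPM). Of 19 signalling genes 2 were higher and 3 lower, no larger a share than the 38.2% of all genes that passed, and of 6 ligands 3 were higher and 1 lower, with Il1b at 154 against 6.90 CPM. Monocytes against neutrophils had 3 of 15 receptors higher and 1 lower, against 16.3% and 11.3% of all genes, and 1 of 3 ligands in each direction. The lower one was Csf3r, the receptor for the neutrophil growth factor G-CSF (62.4 against 169 CPM), and DESeq2 called 0 of the 15. None of 7 signalling genes passed there with edgeR or DESeq2, and 0 had an unadjusted edgeR p under 0.05.

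In CD44-high against CD44-low CD4 T cells 1 of 8 other receptors passed against 2.99% of all genes higher, Il18r1, with 111 CPM against 19.5 CPM (log2 fold 2.38, SE 0.59, adjusted p = 0.0104). DESeq2 gave none of those 8 an adjusted p. Of 7 signalling genes and 2 ligands 0 passed with edgeR, also at an unadjusted p under 0.05, and 0 with DESeq2 among the 2 of each list that had its adjusted p. CD8 against CD4 T cells had no edgeR call among 8 receptors, 7 signalling genes and 2 ligands, against 2.98% of all genes, with 1, 2 and 0 at an unadjusted p under 0.05. DESeq2 gave an adjusted p to 2 of these genes, both signalling genes, and called 0. Marginal zone B cells had 3 of 14 other receptors lower and 0 higher, against 4.14% and 5.07% of all genes, and DESeq2 called 2 of them. They were Ifngr2 (42.7 against 94.6 CPM), Tnfrsf13c (252 against 490 CPM) and the interferon receptor chain Ifnar1 (35.6 against 66.1 CPM), so the partner chain Ifngr2 was lower where Ifngr1 overlapped. Ptpn6, which encodes the phosphatase SHP-1, was lower among 18 signalling genes, and Tgfb1 among 5 ligands. In the CD5-high gate Csf2rb, the signalling chain that the interleukin-5 receptor uses, was higher together with Il5ra, at 26.7 against 3.103 CPM (log2 fold 3.17, SE 0.78, adjusted p = 0.00618, from 11 and 10 UMIs). It was the one of 15 other receptors that was higher there, with Ifngr2 and Tnfrsf13c lower, against 4.05% and 2.65% of all genes, and 2 of 17 signalling genes (Ptpn6 and Jak1) and 1 of 4 ligands (Il16) were lower. DESeq2 called 2, 1 and 0 of these lists. In IgD-low CD21/35-low B cells none of 18 receptors, 18 signalling genes and 6 ligands passed with edgeR or DESeq2, against 2.93% of all genes, and 5, 2 and 1 of them had an unadjusted edgeR p under 0.05.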

How the data were processed

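CITE-seq of spleen cells gave UMIs per gene and antibody tags per droplet. Per the submitters' processing notes, Cell Ranger 3.0.2 and bcl2fastq were used, with the mm10 genome. The deposited tables hold raw counts per droplet for RNA and for 30 antibodies. How the antibody tags were counted is not given in these sources. Of 11713 gene identifiers 11682 matched a symbol. The receptor genes and lists were chosen with earlier results of these data known.

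Antibody tags were put on a centred log-ratio across droplets, and a Gaussian mixture of 2 components (scikit-learn 1.9.0) called positive droplets. The 14 barcodes shared by the libraries and droplets that may hold several cells were kept. UMIs were summed per library and gate, a gate needing 10 droplets in each library, and tested with edgeR 4.0.16 (R 4.3.3) in 3 fits: 9 lineage gates, 4 T subsets and 5 B subsets. Genes with 50 UMIs over the fit and 20 over the compared gates were tested. Gates of a library share its preparation, so the library pairs them by construction. edgeR estimated infinite prior degrees of freedom for the lineage fit, which takes each gene's spread from the trend over genes, and 27.3 and 32.9 in the T and B fits. The SE of an edgeR fold is the absolute log2 fold divided by the square root of the test's F value, and is not a separately fitted error. CPM intervals are exact Poisson, shares Wilson, and both cover counting error only. The tests were tried on simulated counts first. Named list genes are up to 3 per list and comparison with the largest absolute log2 fold among those that passed; some are not reported here. Alternatives were DESeq2 1.42.0, its size factors, no count filter, no block, other gating, droplets under 4000 UMIs, droplets without marker genes of another lineage, each library alone and, added later, the T gate without CD4 and CD8a double-positive droplets.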

Additional observations from a re-analysis of the deposited data

How the results depend on the processing

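None of the 34 calls changed direction in any alternative that gave a value. In T against B cells DESeq2 called 5 receptor genes in place of 8. In CD44-high against CD44-low CD4 T cells DESeq2 called 0 in place of 1, which is no lost call since it gave Il2rb no adjusted p, and tags centred within each droplet gave 2, adding Il4ra (log2 fold -1.48, adjusted p = 0.0335). The same gating gave 1 in CD8 against CD4 T cells in place of 0. In IgD-low CD21/35-low against follicular B cells 3 calls became 1 with droplets under 4000 UMIs, 0 with DESeq2 and 1 with no replicate block. The causes were not tested. Without the library block, which pairs gates of 1 library, Il21r was lost in T against B cells (adjusted p = 0.111) and Il2rg (0.313) and Il21r (0.189) in the IgD-low comparison, and no other receptor call changed. With 1 library left out, the gate with the highest level was the same for 6 to 7 of the 10 genes, and for 6 with tags centred within each droplet.

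Over all genes, DESeq2 called 1291 in place of 2341 in T against B cells, 2263 of 3658 in myeloid against B cells, 598 of 903 in monocytes against neutrophils and 473 of 781 in marginal zone B cells. In CD8 against CD4 T cells 72 calls became 41 with no count filter and 32 with each of DESeq2, droplets under 4000 UMIs and no block. In the CD44 comparison 127 became 194 with tags centred within each droplet, 50 with DESeq2 and 84 with no block. In the IgD-low comparison 255 became 505, 66 and 106 in that order, and 111 with droplets under 4000 UMIs. The 2 libraries, and gates as small as 15 droplets in 1 library, limit what could be detected, and genes at or under 3 UMIs in a gate give bounds or wide intervals.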
